A study of Mus musculus with 8 samples.

Results

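The naive state and quiescence regulators examined here were 10 genes, Foxo1, Foxp1, Tob1, Btg1, Btg2, Slfn2, Tcf7, Lef1, Satb1 and Bach2, chosen as the rows of the expression table that carry these symbols. All 10 were found among the 27179 genes of the table, and all 10 passed the limit on low values that left 12605 genes for testing. The cells were splenic CD4+ T cells of mice of the strain C.Cg-Foxp3tm2Tch/J at 8 weeks of age, a line in which the Foxp3 locus also drives a green fluorescent protein. Control offspring came from parents on unspiked water, and Cd offspring from parents given drinking water with 10 ppm CdCl2 from before mating, fathers until they left the cage and mothers until the birth of the litter. The cells were purified by negative selection and cell sorting, described by the study as CD4+CD25- conventional T cells, and RNA was taken at 0 hours (unstimulated) or after 16 hours with anti-CD3/CD28 beads (stimulated). RNA sequencing gave 8 libraries, 2 for each of the 4 combinations of parental exposure and stimulation. The library totals, inferred from the deposited values, were 15542732 to 25486791 reads.

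A naive T cell is held in quiescence, a state of small size, low metabolism and no division, by factors that keep its program running and by factors that restrain growth. The forkhead factors Foxo1 and Foxp1 and the HMG-box factors TCF-1 (encoded by Tcf7) and LEF-1 belong to the transcriptional side, as do the chromatin organizer Satb1 and the repressor Bach2, while Tob1, Btg1 and Btg2 belong to a family of antiproliferative proteins that bring the CCR4-NOT deadenylase to mRNAs and so shorten their life. Slfn2, of the Schlafen family, is needed for T cells to stay quiescent, and signals through the T cell receptor and CD28 end this state.

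On the GRCm38.p6 assembly (RefSeq) the antiproliferative genes are short, Tob1 at chr11:94209842-94215495, Btg1 at chr10:96617001-96622813 and Btg2 at chr1:134074865-134079155, and none of them overlaps another gene in GENCODE M21. The transcription factor genes span more sequence, with Foxo1 at chr3:52268337-52350109, Foxp1 at chr6:98925342-99522746, Tcf7 at chr11:52246527-52283383, Lef1 at chr3:131110297-131224357, Satb1 at chr17:51736187-51833290 and Bach2 at chr4:32238413-32586109.

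Levels are given as RPKM, in which a read count is divided by the length of the transcript and by the depth of the library, so that genes can be compared with each other. In unstimulated control cells Tcf7 had the highest mean of the 10 genes at 895 ± 9.68 RPKM (SD, n = 2), above 99.6% of the genes tested. Btg1 followed at 360.2 RPKM, then Lef1 at 284, Slfn2 at 230.2, Satb1 at 172, Btg2 at 155, Foxo1 at 136, Foxp1 at 73.1, Tob1 at 55.8 and Bach2 at 34.3 ± 1.46 RPKM. Even Bach2, the lowest, lay above 82.4% of the genes tested. The libraries of neighbors in this order did not overlap. In stimulated control cells the order was Tcf7, Slfn2, Btg1, Lef1, Satb1, Foxp1, Bach2, Btg2, Foxo1 and Tob1, again with no overlap between the libraries of neighbors. In Cd offspring the libraries of Foxo1 and Btg2 overlapped in unstimulated cells and those of Bach2 and Btg2 in stimulated cells, while all other neighbors stood apart. The fewest reads behind any of these values were 531, for Tob1, and the counting error of 1 value was thus between 0.52% and 4.34%.

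**Figure D1:**
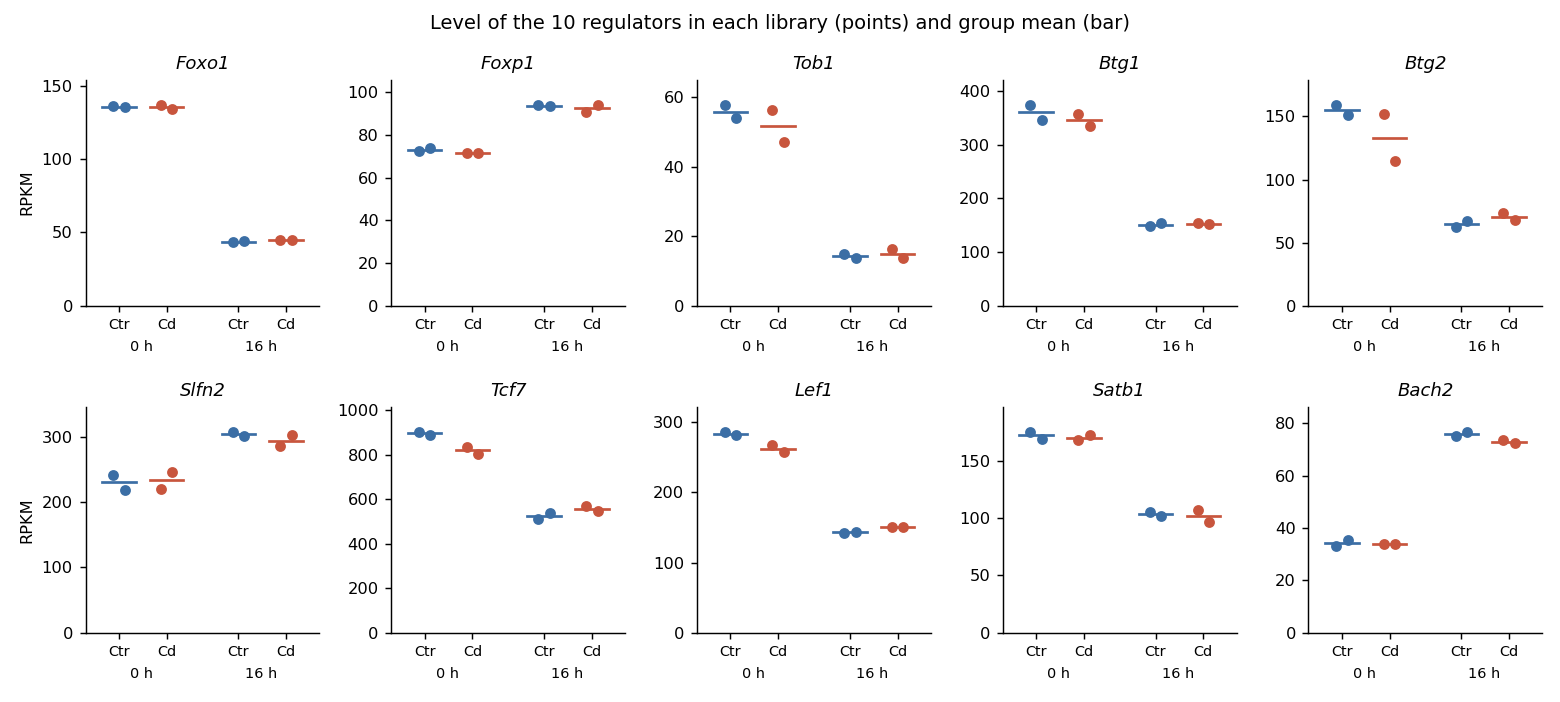
Level of each of the 10 regulators in RPKM (vertical axes from 0, each gene on its own scale) for control (Ctr, blue) and Cd (red) offspring at 0 and 16 hours of stimulation. Points are single libraries and bars are the means of 2 libraries, and for every gene the stimulated and unstimulated libraries do not overlap, with Foxp1, Slfn2 and Bach2 higher and the other 7 genes lower after stimulation.

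To ask how the regulators respond to stimulation, stimulated and unstimulated cells were compared with limma on log2(RPKM + 0.1), with p-values adjusted over all genes tested. A gene is said to have risen or fallen here at an adjusted p under 0.01, and to have been called where it also changed more than 2-fold. In control offspring 7 of the 10 regulators fell and 3 rose, against 21.8% and 29.9% of all genes tested, and 51.7% of all genes passed in either direction. Of the 10 regulators 5 were called, Foxo1, Tob1, Btg1 and Btg2 as lower and Bach2 as higher, against 18.7% of the genes tested (7.17% lower, 11.5% higher). The median log2 fold change was -0.88 over the 10 regulators and 0.070 over all genes tested. Median-of-ratios scaling placed the median of all genes at -0.0062 and quantile normalization at -0.033, a shift of about 0.1 at most. Relative to the other genes of a library, this leaves the direction of each of the 10 regulators as given. The libraries of the 2 groups did not overlap for any of the 10 genes, as for 83.1% of the genes tested (46% higher, 37.2% lower). In bulk RNA, fewer cells of a type and less RNA of a gene per cell cannot be told apart. RPKM and both scalings compare a gene with the other genes of its library, so a change in total RNA per cell was not measured.

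Of the forkhead factors, Foxo1, which sustains the expression of homing and survival receptors in naive T cells, was at 136 RPKM in both unstimulated control libraries. After stimulation it was at 43.1 and 44.1 RPKM, 32.1% of the unstimulated mean. The log2 fold change was -1.64 with a standard error of 0.041 and an adjusted p of 2.49e-07 (limma), and it was the most precisely measured fall of the 10. In Cd offspring Foxo1 went from 137 and 134 RPKM to 44.7 RPKM in both libraries, a log2 fold change of -1.60. Foxp1, another forkhead factor that restrains naive T cells, moved the other way. It stood at 72.4 and 73.8 RPKM in unstimulated and at 94.0 and 93.6 RPKM in stimulated control cells, a log2 fold change of 0.36 (SE 0.042, limma adjusted p = 0.000189). The values in Cd offspring were 71.6 and 71.7 RPKM before and 90.8 and 94.2 RPKM after stimulation, so that Foxp1 rose in both kinds of offspring by well under 2-fold.

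The antiproliferative genes fell together. Tob1 had the largest log2 fold change of the 10 genes, -1.96 (SE 0.11, limma adjusted p = 3.8e-06), from 57.7 and 53.8 RPKM in unstimulated to 14.9 and 13.7 RPKM in stimulated control cells. It lay above 90.4% of the genes tested before stimulation and above 56.4% after it. In Cd offspring Tob1 was at 56.3 and 47.0 RPKM and then at 16.2 and 13.8 RPKM, a log2 fold change of -1.78. Btg1 was at 374 and 346 RPKM in unstimulated and at 147 and 154 RPKM in stimulated control cells, a log2 fold change of -1.25 (SE 0.059, limma adjusted p = 1.89e-06). After this fall to 41.9% of its mean Btg1 was the third highest of the 10 genes, where it had been behind Tcf7 alone. Its levels in Cd offspring were 357 and 334 RPKM before and 153 RPKM in both libraries after stimulation.

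Btg2, the closest relative of Btg1, was at 159 and 151.5 RPKM in unstimulated and at 62.2 and 66.7 RPKM in stimulated control cells, a log2 fold change of -1.27 (SE 0.12, limma adjusted p = 5.82e-05). In Cd offspring it was at 152 and 115 RPKM in unstimulated and at 73.2 and 67.6 RPKM in stimulated cells. The fall there had a log2 fold change of -0.91 (limma adjusted p = 0.000363), short of the 2-fold limit. The low value of 115 RPKM belongs to the unstimulated Cd library with the number 7. Without that library the log2 fold change of Btg2 in Cd offspring was -1.11 and past 2-fold, and without the other unstimulated Cd library it was -0.70. Quantile normalization also took it past 2-fold, to -1.01. Klf2, a factor of quiescent T cells, was also lowest among the unstimulated libraries in that one, at 268 RPKM against 366 to 406 RPKM in the other 3. Tob1, at 47.0 RPKM, was lowest there as well.

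The sequence before an annotated transcript start is shown for the 2 called genes whose windows hold the letters of a searched motif, Btg1 and Tob1, and for Bach2, the called gene that rose. The windows are the 250 bases upstream of a RefSeq transcript start (GRCm38.p6), printed 5' to 3' on the strand of the gene, at chr10:96616751-96617000 for Btg1, chr11:94211204-94211453 for Tob1 and chr4:32417185-32417434 for Bach2, all on the plus strand. The windows of Tob1 and Bach2 lie inside the gene intervals given above, before the start of a shorter transcript, and that of Btg1 ends where the gene begins. Capitals mark a match to a motif, the FOXO letters TGTTTAC in Btg1 and, as its reverse complement, the KLF letters CCACCC in Tob1.

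Btg1: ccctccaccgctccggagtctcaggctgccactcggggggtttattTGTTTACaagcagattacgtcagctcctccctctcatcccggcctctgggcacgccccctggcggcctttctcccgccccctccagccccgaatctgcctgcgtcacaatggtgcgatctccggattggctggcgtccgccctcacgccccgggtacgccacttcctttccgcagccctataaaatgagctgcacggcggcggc

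Tob1: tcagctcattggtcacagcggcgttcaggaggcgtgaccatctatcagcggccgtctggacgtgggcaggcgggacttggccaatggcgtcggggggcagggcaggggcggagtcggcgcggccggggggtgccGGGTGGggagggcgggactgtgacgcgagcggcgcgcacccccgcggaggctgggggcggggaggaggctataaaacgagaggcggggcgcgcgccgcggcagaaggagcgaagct

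Bach2: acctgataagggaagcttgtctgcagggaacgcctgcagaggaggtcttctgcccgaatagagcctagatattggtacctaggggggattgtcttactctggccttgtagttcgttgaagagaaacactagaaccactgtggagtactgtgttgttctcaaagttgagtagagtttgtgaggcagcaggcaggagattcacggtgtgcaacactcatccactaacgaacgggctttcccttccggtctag

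Both strands of all RefSeq windows of the 10 genes were searched for 4 motifs. The FOXO letters were in 1 of the 10 genes, Btg1, and in 2.72% of the 9195 tested genes that have a window. The KLF letters CCACCC were in 5 of the 10, Foxp1, Tob1, Tcf7, Lef1 and Satb1, and in 35.8% of the tested genes. The TCF/LEF letters CTTTGAT and the AP-1 letters TGACTCA were in none of the 10 and in 2.61% and 3.58% of the tested genes. A gene counted where any of its windows matched, and the number of windows was not evened out. Among the 10 it ran from 1, as for Tob1, to 5, for Satb1, while the 9195 tested genes have 11600 windows together. The shares are therefore not like for like. The windows shown differ in base composition, with 73.6% G and C and 32 CpG for Tob1, 65.2% and 21 for Btg1, and 50.4% and 7 for Bach2, against medians of 59.6% and 16 over the windows of tested genes. These matches describe letters, and no binding was measured.

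Slfn2 lies at chr11:83065112-83070678 (GRCm38.p6) in a cluster of Schlafen genes. Its level was 241 and 219 RPKM in unstimulated and 307 and 301 RPKM in stimulated control cells, a log2 fold change of 0.40 (SE 0.073, limma adjusted p = 0.00192). In Cd offspring it was at 220.3 and 246 RPKM before and at 285 and 302 RPKM after stimulation, a log2 fold change of 0.34 (limma adjusted p = 0.00481). Its rise had the highest adjusted p of the 10 changes in both kinds of offspring. Under median-of-ratios scaling its adjusted p was 0.0101 in control and 0.0193 in Cd offspring, and with single libraries left out it reached 0.0152 in control offspring (without the stimulated library 6) and 0.0386 in Cd offspring (without the stimulated library 7). An antisense transcript, Gm20234, overlaps Slfn2 on the other strand and was at 11.7 and 19.4 RPKM in unstimulated and stimulated control cells. Whether the counting used strand, and how it treated reads that match several Schlafen genes, is not given in the sources used here, so the value of Slfn2 is uncertain in that respect.

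Tcf7 and Lef1, whose products act together in naive T cells, both fell. Tcf7 was at 902 and 888 RPKM in unstimulated and at 512 and 537 RPKM in stimulated control cells, a log2 fold change of -0.77 (SE 0.058, limma adjusted p = 1.8e-05). With 58.6% of its mean left, it was still the highest of the 10 genes and above 99.4% of the genes tested. In Cd offspring it went from 836 and 804 RPKM to 568 and 545 RPKM, a log2 fold change of -0.56. Lef1 was at 286 and 282 RPKM in unstimulated and at 142 and 144 RPKM in stimulated control cells. Its log2 fold change of -0.99 (SE 0.044, limma adjusted p = 1.54e-06) lay just short of 2-fold, and under median-of-ratios scaling it was -1.07 and past it. In Cd offspring Lef1 went from 267.5 and 257 RPKM to 151 and 150.3 RPKM, a log2 fold change of -0.80.

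Satb1 was at 175 and 169 RPKM in unstimulated and at 105 and 102 RPKM in stimulated control cells, a log2 fold change of -0.74 (SE 0.058, limma adjusted p = 2.25e-05). The fall was of the same size in Cd offspring, from 168 and 172 RPKM to 107 and 97.1 RPKM, also a log2 fold change of -0.74. Bach2, which represses effector genes in T cells, was the regulator that rose most. It was at 33.3 and 35.4 RPKM in unstimulated and at 75.2 and 76.75 RPKM in stimulated control cells, 2.21 times the unstimulated mean. The log2 fold change was 1.14 (SE 0.048, limma adjusted p = 1.14e-06). In Cd offspring Bach2 went from 34.1 and 33.95 RPKM to 73.6 and 72.4 RPKM, a log2 fold change of 1.10, which quantile normalization lowered to 0.96, short of 2-fold, so that the call of Bach2 in Cd offspring ended. Overlapping transcripts on the other strand had low levels: Bach2os was at 3.63 and 5.05 RPKM in unstimulated and stimulated control cells, A630014C17Rik, opposite Tcf7, was at 7.04 and 7.05 RPKM, and Gm6934, opposite Satb1, was at 7.11 and 6.66 RPKM.

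In Cd offspring as a whole, 7 of the 10 regulators fell and 3 rose, the same genes in each direction as in control offspring, against 22.3% and 30.2% of all genes and 52.5% in either direction. Of these 4 were called, Foxo1, Tob1 and Btg1 as lower and Bach2 as higher, against 18.6% of the genes tested (7.24% lower, 11.4% higher). The libraries did not overlap for any of the 10, against 83.1% of all genes (44.7% higher, 38.4% lower). The median log2 fold change of the 10 was -0.77, and that of all genes was 0.050. The 2 comparisons have no library in common but share 1 estimate of the spread.

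**Figure D2:**
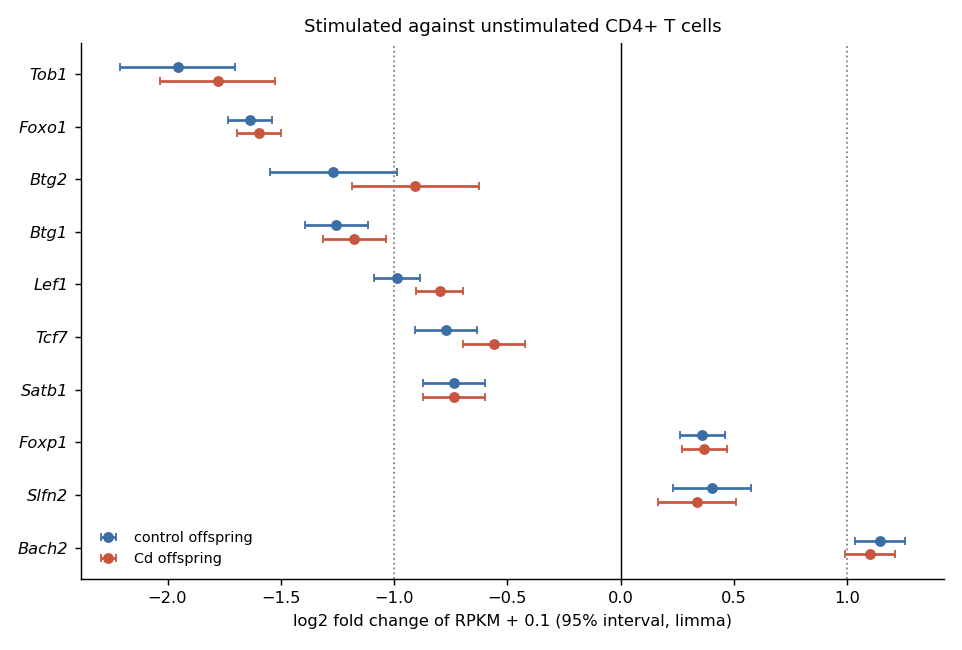
Log2 fold change of RPKM + 0.1 between stimulated and unstimulated cells (horizontal axis) for each regulator in control (blue) and Cd (red) offspring, with bars for the 95% interval from limma and dotted lines at 2-fold. Tob1 and Foxo1 lie farthest to the left, at -1.96 and -1.64 in control offspring, Foxp1, Slfn2 and Bach2 lie to the right of 0, and the 2 kinds of offspring lie farthest apart for Btg2, at -1.27 and -0.91.

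The stimulation itself was visible in 6 of 7 activation genes, among them Irf4 and Il2ra, whose summed level was 171 to 221 RPKM in unstimulated and 1470 to 1584 RPKM in stimulated libraries. The seventh, the division marker Mki67, was at 0.84 and 0.386 RPKM in unstimulated and stimulated control cells. The falls of Tcf7, Lef1 and Satb1 stand beside lower RPKM of general T cell genes. Of 6 such genes, 5 fell in control cells, with log2 fold changes of -0.75 for Cd3d, -0.57 for Cd3e, -1.16 for Cd3g, -0.53 for Cd4 and -0.66 for Lck, while Cd5 was at -0.09, and the summed level went from 2051 to 2096 RPKM down to 1297 to 1323 RPKM. Markers of other cells also moved. The summed level of the 3 NK cell genes was 13.8 to 17.2 RPKM in unstimulated and 3.99 to 6.3 RPKM in stimulated libraries, with Ncr1 at or near 0 throughout and both tested genes lower. That of 7 effector or memory genes was 91.5 to 111 and 64.3 to 71.9 RPKM, with 3 lower and 2 higher in control cells. That of 5 myeloid genes was 6.23 to 7.83 and 3.21 to 4.31 RPKM, with both tested genes lower. The regulatory T cell genes went the other way, with a summed level of 15.1 to 19.4 RPKM in unstimulated and 61.0 to 70.8 RPKM in stimulated libraries. Most of this rise was Ctla4, which went from 8.26 to 42.3 RPKM in control cells. Of these 4 genes, Ctla4 and Ikzf4 rose in both kinds of offspring and Foxp3 in Cd offspring (log2 fold change 0.68). Foxp3 did not pass in control offspring (0.41), and Ikzf2 passed in neither (0.35 in control, 0.18 in Cd offspring). Cd79a, a gene of B cells, rose in Cd offspring from 3.16 to 4.71 RPKM. Their part in the changes of the 10 regulators was not tested.

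Genes related to the regulators were described by 8 lists with 52 tested genes, of which 13 rose and 21 fell in control offspring and 12 rose and 23 fell in Cd offspring. Of all genes tested, 29.9% rose and 21.8% fell in control offspring and 30.2% and 22.3% in Cd offspring, and the counts of each list below stand against these shares. The known Foxo1 target genes of naive T cells fell with Foxo1 for the most part, with 6 of 7 lower, 1 higher and a median log2 fold change of -0.90. Klf2 fell from 378 and 406 RPKM to 108 and 130.3 RPKM (log2 fold change -1.72), S1pr1, the receptor for exit from lymphoid organs, from 234 to 84.6 RPKM (-1.47) and Pik3ip1, an inhibitor of PI3K, from 79.4 to 30.5 RPKM (-1.38). Ccr7, which guides cells into lymph nodes, was the exception and rose from 264 to 393 RPKM (0.57). Of 4 FOX relatives Foxp4 rose from 18.6 to 56.0 RPKM (1.58) and Foxo4 fell (-1.04), while Foxp3 (0.41) and Foxo3 (-0.36) did not pass in control offspring.

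The partners of Tob1, Btg1 and Btg2 moved less. Of 12 subunits of the CCR4-NOT complex, 7 rose in control and 5 in Cd offspring, none fell and none passed 2-fold. The median log2 fold change was 0.33 in control offspring, with the largest values for Cnot9 (0.82), Cnot6 (0.62) and Cnot2 (0.56). Of their relatives, Btg3 fell (-0.51) and Tob2 (-0.26) did not pass the test. Slfn2 rose while 3 of its 6 tested relatives fell and none rose, in control offspring (5 fell in Cd offspring), with Slfn5 going from 55.5 to 6.78 RPKM (-3.02), Slfn8 from 59.2 to 22.5 RPKM (-1.39) and Slfn10-ps at -0.59.

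Around Tcf7 and Lef1, 3 of 7 relatives and cofactors fell and 2 rose. Tle5, a short member of the Groucho corepressor family, fell from 326 to 140.0 RPKM (log2 fold change -1.22) and Tle4 by 0.88 on the log2 scale, and Tle6 rose by 1.63 at a level under 1 RPKM in each control group. Of 5 relatives and partners of Satb1 and Bach2, Mafg, a small Maf protein that pairs with Bach factors, rose from 5.53 to 23.4 RPKM (2.06), while Maff (-1.63), Nfe2l2 (-0.62) and Mafk fell. Of 9 other quiescence genes 4 fell and 1 rose, with Peli1 (-1.08), the transcription factor Ets1 (-0.99) and Runx1 (-0.66) changing most. Their median of -0.17 lay nearer to that of all genes than the median of the 10 regulators.

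**Figure D3:**
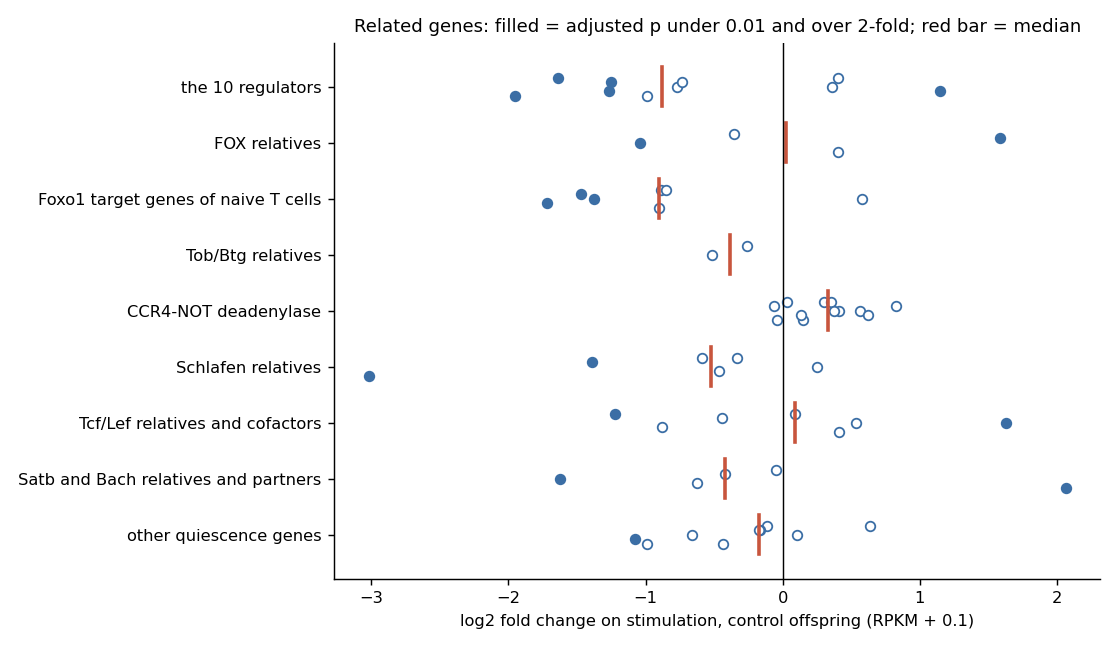
Log2 fold change on stimulation in control offspring (horizontal axis) for the 10 regulators and the tested genes of 8 related lists. Each point is 1 gene, filled where the adjusted p was under 0.01 and the change over 2-fold, and red bars are medians, which lie at -0.88 for the regulators, -0.90 for the Foxo1 target genes and 0.33 for the CCR4-NOT deadenylase.

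To ask whether parental Cd changes the regulators in resting cells, unstimulated cells of Cd and control offspring were compared at an adjusted p under 0.05. None of the 10 regulators was called by limma or by limma voom on recovered reads, against 0.896% of the genes tested, and 1 of the 10 had an unadjusted p under 0.05, as had 13.9% of the genes tested. This was Lef1, with a log2 fold change of -0.12 (95% interval -0.22 to -0.012, limma adjusted p = 0.322). Quantile normalization moved it to -0.050 and median-of-ratios scaling to -0.13. Both Cd libraries of Lef1, at 267.5 and 257 RPKM, lay below both control libraries, at 286 and 282 RPKM. The same held for Tcf7, at 836 and 804 against 902 and 888 RPKM (log2 fold change -0.13, 95% interval -0.26 to 0.010, limma adjusted p = 0.392), and for Foxp1. The value of Tcf7 depended on the choice of scaling. Quantile normalization left -0.0033, while median-of-ratios scaling gave -0.14. These 3 of 10 genes without overlap compare with 42.3% of the genes tested, 20% with the Cd libraries lower. Btg2 had the largest mean difference, -0.24 on the log2 scale, with overlapping libraries and an interval of -0.52 to 0.046 (limma adjusted p = 0.428). It rested on 1 library, being -0.034 without the unstimulated Cd library 7, which is smaller than the difference of Tcf7 or Lef1 in the same fit, and -0.44 without the unstimulated Cd library 6. Tob1 moved with the same library, to 0.013 without library 7 and -0.25 without library 6. For the other 7 genes the log2 fold changes lay between -0.12 for Tob1 and 0.017 for Slfn2. The 6 T cell genes, none of them called, also had a lower summed level in the Cd libraries, at 1948 to 1976 RPKM against 2051 to 2096 RPKM in control libraries, and their part in the values of Tcf7 and Lef1 was not tested.

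In stimulated cells none of the 10 regulators was called for Cd, against 0% of the genes tested, and none had an unadjusted p under 0.05, against 3.28% of all genes, and voom on recovered reads called none of the 10 either. The log2 fold changes ran from -0.058 for Bach2 to 0.13 for Btg2, and the limma adjusted p was 1 for each of the 10. The intervals bound these differences for most genes, for example -0.063 to 0.13 for Foxo1, -0.12 to 0.078 for Foxp1 and -0.17 to 0.053 for Bach2, and less well for Btg2, at -0.16 to 0.41. The libraries did not overlap for 5 of the 10, with Foxo1, Btg2, Tcf7 and Lef1 higher and Bach2 lower in Cd offspring. This compares with 36.7% of the genes tested (16% higher, 20.6% lower). Here the summed T cell genes were at 1351 RPKM in both Cd libraries and at 1297 and 1323 RPKM in the control libraries.

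Whether Cd offspring responded differently to stimulation was tested as an interaction in the same fit, on the libraries of the comparisons above. None of the 10 regulators was called, against 0.357% of the genes tested (0.301% higher, 0.0555% lower), and 2 of the 10 had an unadjusted p under 0.05, against 10.6% of all genes. Lef1 fell less in Cd offspring by 0.19 on the log2 scale (95% interval 0.042 to 0.33, limma adjusted p = 0.372) and Tcf7 by 0.21 (95% interval 0.018 to 0.40, limma adjusted p = 0.435), and both fail the correction. Quantile normalization lowered these differences to 0.12 for Lef1 and 0.084 for Tcf7. Btg2 had the largest difference, 0.36, with an interval of -0.036 to 0.76, but it was 0.16 without the unstimulated Cd library 7, at which it was no longer the largest, and 0.56 without the unstimulated Cd library 6. For the other 7 genes the difference lay between -0.066 for Slfn2 and 0.18 for Tob1, the latter being 0.047 and 0.31 without the unstimulated Cd library 7 or 6. No gene of the 8 related lists was called for Cd or for the difference of the responses. With 2 libraries a group, an exact permutation test of 1 group against another could not give a p below 0.333 for any of these genes. The limit for the difference of responses was not computed. A difference smaller than the intervals was not detectable.

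**Figure D4:**
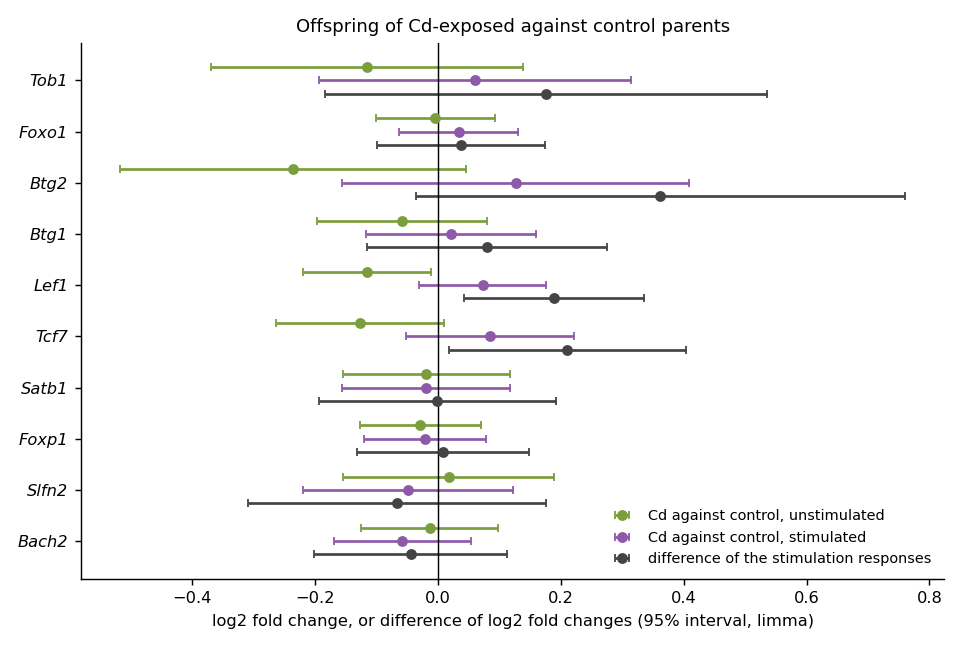
Log2 fold change of Cd against control offspring in unstimulated (green) and stimulated (purple) cells, and the difference of the stimulation responses (black), for each regulator, with 95% intervals from limma. Most intervals include 0, and the exceptions are Lef1 in unstimulated cells, at -0.12, and the differences for Lef1 and Tcf7, at 0.19 and 0.21.

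As a description over the 8 libraries, each regulator was set beside the other tested gene with a mean of at least 5 RPKM whose log2 values had the highest Pearson r with it, out of 8671 genes. The libraries fall into stimulated and unstimulated ones, so the coefficients mostly reflect that step. Foxo1 was most like Arl4c (r = 0.9997), Tob1 like Mfap1a (0.9998), Btg1 like Prdm2 (0.9995) and Btg2 like Eif1 (0.9994). Foxp1 was most like Sdf2l1 (0.9991), Bach2 like Chchd4 (0.9997) and Slfn2 like Zdhhc3 (0.994). Tcf7 was most like Tmem50a (0.9988), Lef1 like the receptor gene Il6ra (0.9995) and Satb1 like 2610008E11Rik (0.9989). A high r does not mean a change of the same size. On stimulation in control offspring the log2 fold change was -3.17 for Arl4c against -1.64 for Foxo1, and -0.77 for Mfap1a against -1.96 for Tob1. Other matches were closer, such as Il6ra at -0.89 against Lef1 at -0.99. Among the 10 themselves Foxo1 and Btg1 (0.9979) and Tcf7 and Lef1 (0.997) were the closest pairs, and Slfn2 had the lowest best match, with Foxp1 (0.9486).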

How the data were processed

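Alignment by the authors used Subread and mm10, and featureCounts gave counts per RefSeq transcript. Versions, strand setting and the treatment of reads with several matches are not given in the sources used here. The deposited table holds log2 values, read from the data as log2(RPKM + 1) + 0.0001, and these were turned back into RPKM. After this step 92% of 2381 low genes stepped in whole reads (within 0.05 reads), against 0.21% of 2379 on the values as deposited, and library totals were taken from the steps.

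A gene was tested where its RPKM averaged 0.5 or more, in limma 3.58.1 (R 4.3.3) on log2(RPKM + 0.1), with 4 group means over 8 libraries, a variance trend and Benjamini-Hochberg adjustment. The study took the litter as its replicate, but neither its text nor the labels tie each library to a litter, so p-values measure the spread between these libraries. The 10 genes and the lists were chosen with earlier results of these data known. Named from each list were the 3 tested genes that changed most on stimulation in control offspring, and any list gene called for Cd. Ccr7, Foxo3, Mafk, the overlapping transcripts and the cell type markers were named after their values were seen. The alternatives were other pseudocounts (0.5, 1), other limits on the mean RPKM (none, 1), median-of-ratios scaling, quantile normalization, no trend, a replicate block, only the libraries of a comparison, each library left out and, chosen after seeing the data, limma voom on recovered reads. Sequences are from RefSeq GRCm38.p6, with GENCODE M21 for overlaps. Python 3.11.15 and matplotlib 3.10.9 drew the plots.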

Additional observations from a re-analysis of the deposited data

How the results depend on the processing

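The number of regulators called stayed between 5 and 6 for stimulation in control offspring, between 4 and 5 in Cd offspring and at 0 for both Cd comparisons and the difference, over all alternatives run. Under quantile normalization the count of 4 in Cd offspring held Btg2 (-1.01) in place of Bach2 (0.96). A fit with 1 library left out assumes that the library left alone in its group varies like the others. Their median log2 fold change moved to -0.96 in control and -0.83 in Cd offspring with median-of-ratios scaling, and that of the difference to -0.00088 with quantile normalization. The count of all genes called depended on the alternative, and the cause was not tested. For Cd in unstimulated cells (113) it was 65 without the filter, 14 without the trend, 52 with only the libraries of the comparison and 215 with voom, and 19 to 105 with 1 library left out. For Cd in stimulated cells (0) it was 9 without the filter, 2 without the trend and 0 to 3 with 1 library left out. For the difference (45) it was 28 without the filter, 4 without the trend, 111 with voom and 2 to 63 with 1 library left out.

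No source says that libraries of the same number come from 1 animal. The deviations of such libraries from their group means were compared between unstimulated and stimulated cells. Their correlation was 0.064 in control and 0.0085 in Cd offspring. Over all pairs of groups, those of control with Cd offspring included, it ran from -0.11 to 0.064. A replicate block by number changed no count of regulators called, and a block by offspring label left 25 genes for the difference.

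Differences near 0 changed sign. With median-of-ratios scaling the difference of responses of Satb1 was 0.020. With quantile normalization Cd in unstimulated cells gave 0.044 for Foxo1, 0.059 for Btg1, 0.041 for Satb1 and 0.00083 for Bach2, and the difference gave -0.0075 for Foxp1 and -0.031 for Btg1. With 1 library left out, Cd in unstimulated cells ran from -0.044 to 0.0060 for Satb1, -0.062 to 0.096 for Slfn2, -0.057 to 0.030 for Bach2, -0.021 to 0.012 for Foxo1 and -0.25 to 0.013 for Tob1. Cd in stimulated cells ran from -0.011 to 0.053 for Btg1, -0.092 to 0.053 for Satb1, -0.055 to 0.17 for Tob1 and -0.047 to 0.0056 for Foxp1. The difference ran from -0.019 to 0.034 for Foxp1, -0.15 to 0.013 for Slfn2 and -0.073 to 0.071 for Satb1. None of these passed the test.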

Other observations

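Other marker genes of the design were read as levels only. Cd8a was at most 0.139 RPKM as a group mean, while Cd8b1 was at 9.98 and 11.0 RPKM in unstimulated and stimulated control cells. Foxp3 was at 4.96 and 6.64 RPKM in control cells. Of 4 erythroid genes in the table Hba-a1 and Hba-a2 were at 0 in all libraries. Hbb-bs was at most 0.048 RPKM as a group mean, and Alas2 was at 0.632 to 1.33 RPKM. Xist was at 52.8 to 65.2 RPKM as a group mean, and of 4 Y-linked genes Kdm5d and Eif2s3y were at 0 throughout. The others, Ddx3y and Uty, were at most 0.0105 and 0.0093 RPKM in any library. All 8 libraries thus had the pattern of female cells, so the values here do not describe male offspring.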
